A study of Rattus norvegicus with 15 samples.

Results

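Retsat, the gene for retinol saturase, was described together with 6 other genes of retinoid handling in rat liver. These were Rbp4, Rdh10, Rdh16, Dhrs3, Aldh1a1 and Cyp26a1. Each was found by its gene name in the deposited expression table, and each name matched a single entry among 26405 genes. Of these 7 genes, 6 were among the 11216 genes that averaged at least 1 FPKM over the 15 libraries and were tested. Cyp26a1 averaged less. FPKM is a fragment number scaled for transcript length and for the size of each library, so levels can be compared between genes of different length. The genes were chosen by their role in retinoid handling and with earlier FPKM results of these data known. Retsat, whose higher FPKM in exercised livers was among those results, gave the set its name, so its differences between groups are a description without a p-value.

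The livers came from Wistar rats that had lost weight and held the lower weight, and were collected and flash frozen 24 h into refeeding, the first day of weight regain. The exercised group had run on a treadmill through weight loss and maintenance and refed ad libitum. The gap-matched group was sedentary and received an energy gap-matched diet, which the labels do not define further. The sedentary group was sedentary and refed ad libitum. Each group had 5 libraries, so weight loss and refeeding were shared by all 3 groups and no rat without weight loss was included. Whether each library is a separate animal is not stated in the labels; p-values here cover just the variation seen among these libraries, which may in part be technical.

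Liver takes up dietary vitamin A, stores most of it as retinyl esters in hepatic stellate cells, and releases retinol into blood bound to Rbp4. Inside cells, retinol and retinal are interconverted by reductases and dehydrogenases. Retinal is oxidised irreversibly to retinoic acid, which binds nuclear receptors of the Rar and Rxr families and is broken down by Cyp26 enzymes. Retinol saturase is an oxidoreductase of the endoplasmic reticulum that removes retinol by a separate route, saturation of a double bond to give dihydroretinol. In mouse, Retsat is also known as a gene regulated with lipid metabolism in liver and adipose tissue.

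Relative sequencing depth, read from the size of the smallest steps in the values of low genes, ran from 0.678 to 1 across the libraries. The absolute depth is unknown. The relative depth averaged 0.897 ± 0.0576 in exercised, 0.908 ± 0.0795 in gap-matched and 0.854 ± 0.122 in sedentary libraries (SD, n = 5 each). Hepatocyte markers had a summed level of at least 44190 FPKM in every library, for 10 of 10 listed genes. The marker lists of other cell types each summed to at most 1834 FPKM in any library. In whole liver, fewer cells of a type and less RNA per cell cannot be told apart.

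Rbp4, the plasma carrier of retinol, was by far the most abundant of the 7 transcripts. It measured 4555, 5863, 6358, 5006 and 5288 FPKM in the exercised libraries, 4865, 4901, 4633, 4366 and 4615 FPKM in the gap-matched libraries, and 4526, 4086, 4799, 5014 and 4217 FPKM in the sedentary libraries. The exercised libraries reached highest, with 3 of 5 above every sedentary library, but the groups overlapped. On the log2(FPKM + 1) scale used for all differences, Rbp4 was 0.25 ± 0.11 (SE) higher in exercised than in sedentary livers, which did not pass at an adjusted p of 0.188 (limma across all tested genes, Benjamini-Hochberg). It passed only when the libraries were quantile normalized, with a difference of 0.41 and an adjusted p of 0.0428. The gap-matched minus sedentary difference was 0.05 (adjusted p = 0.86).

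Rdh10, the membrane-bound retinol dehydrogenase that makes retinal for retinoic acid synthesis, was the lowest of the 6 tested transcripts in every group. It measured 29.4, 23.4, 28.7, 29.6 and 30.4 FPKM in exercised livers, 31.3, 20.6, 27.3, 22.8 and 30.7 FPKM in gap-matched livers, and 19.7, 25.9, 23.2, 25.4 and 22.1 FPKM in sedentary livers. Of the exercised libraries, 4 of 5 lay above all sedentary libraries, and the remaining one, library 2, lay among them. The exercised minus sedentary difference was 0.27 ± 0.12 with an adjusted p of 0.194 in limma. The gap-matched minus sedentary difference was 0.17 (adjusted p = 0.476).

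Rdh16, a microsomal retinol dehydrogenase abundant in rodent liver, varied widely inside each group. It ran from 96.9 to 163 FPKM in exercised, 66.0 to 130.03 FPKM in gap-matched and 55.1 to 146 FPKM in sedentary livers. Its means of 118 ± 26.6 FPKM in exercised, 100.5 ± 27.4 FPKM in gap-matched and 111 ± 36.6 FPKM in sedentary livers (SD, n = 5 each) differed by less than these spreads, with adjusted p-values from 0.639 to 0.86 over the 3 comparisons. Rdh16 belongs to a family of similar rodent genes that includes Rdh7, and the sources used here do not say how fragments shared between such genes were assigned, so its level is uncertain.

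Dhrs3, a reductase that returns retinal to retinol and is known to be induced by retinoic acid, averaged 79.3 ± 18.1 FPKM in exercised, 66.5 ± 11.8 FPKM in gap-matched and 74.0 ± 13.4 FPKM in sedentary livers. All 3 groups overlapped, with single libraries between 56.6 and 104 FPKM. Aldh1a1, a retinal dehydrogenase that makes retinoic acid, averaged 70.4 ± 18.4, 74.5 ± 26.7 and 71.1 ± 7.23 FPKM in exercised, gap-matched and sedentary livers. Its sedentary libraries lay close together, between 63.2 and 78.8 FPKM, while the gap-matched libraries ran from 41.7 to 112 FPKM. Neither gene passed in any comparison, with limma adjusted p-values of at least 0.476 for Dhrs3 and at least 0.934 for Aldh1a1.

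**Figure D1:**
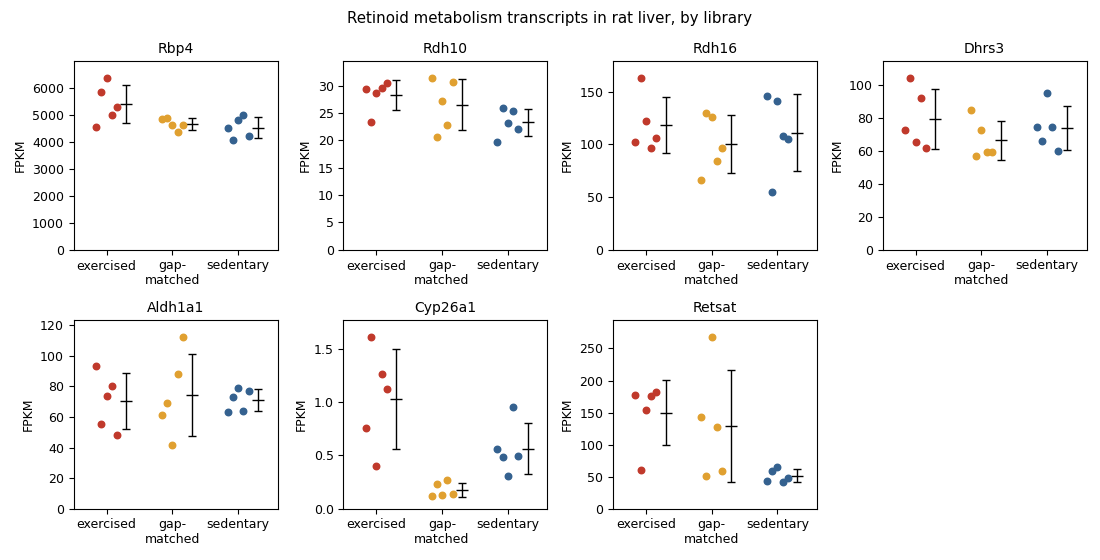
FPKM of the 7 retinoid genes in each library (points) for exercised, gap-matched and sedentary livers, with the group mean and SD (bars, n = 5 each) and a separate vertical axis from 0 for each gene. Retsat was at 155 FPKM or more in 4 exercised libraries and at 64.9 FPKM or less in all sedentary libraries, and Cyp26a1 was lowest in the gap-matched group.

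Counted together, the 5 tested genes other than Retsat gave 0 passes in exercised against sedentary livers with limma at an adjusted p of 0.05, where 5.78% of all tested genes passed. At an unadjusted p of 0.05 there were 2, Rbp4 and Rdh10. Against sedentary livers, the gap-matched group gave 0 passes where 3.05% of genes passed, and 0 at the unadjusted threshold. Between exercised and gap-matched livers there were 0 passes where 0.9% of genes passed, and 0 at the unadjusted threshold. The share of all tested genes under the unadjusted threshold was not computed, so the unadjusted counts have no background to be read against. The median difference over all 7 genes was 0.25, -0.00 and 0.24 in these 3 comparisons, and over all tested genes it was 0.01, -0.03 and 0.04. Retsat, chosen with its result known, is among the 7, so their medians are a description and cannot show a shift of the set.

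Cyp26a1, the main enzyme that clears retinoic acid in liver and a classical retinoic acid target, stood at the bottom of the expression range. It measured 0.752, 1.60, 0.400, 1.26 and 1.13 FPKM in exercised livers, 0.122, 0.229, 0.126, 0.267 and 0.137 FPKM in gap-matched livers, and 0.559, 0.489, 0.306, 0.956 and 0.496 FPKM in sedentary livers. Every gap-matched library lay below every library of the other groups, whereas the exercised and sedentary libraries overlapped. The exercised mean was 5.84 times the gap-matched mean and 1.83 times the sedentary mean, and the gap-matched mean was 0.314 times the sedentary mean.

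Cyp26a1 fell below the abundance filter, so it could be tested only with every detected gene kept, 17514 in all. In that limma fit its exercised minus gap-matched difference was 0.76 ± 0.14 with an adjusted p of 0.0438, in a comparison where 0.24% of genes passed as higher. The call was lost in 9 of 10 fits that left out a library. The adjusted p was 0.0637, 0.109, 0.119 and 0.0688 without exercised libraries 1, 2, 4 and 5, 0.0734, 0.103, 0.08, 0.0972 and 0.104 without gap-matched libraries 1 to 5, and 0.00934 without exercised library 3. These fits were added after seeing the data. Neither difference from sedentary livers passed, at 0.36 for exercised and -0.40 for gap-matched livers, both with an adjusted p of 0.218. Among genes with any value above 0, 1.55% separated the exercised group fully above the gap-matched group, and 3.06% separated the gap-matched group fully below the sedentary group. At these levels each value rests on few fragments, whose number is unknown because the deposited values hold no counts.

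**Figure D2:**
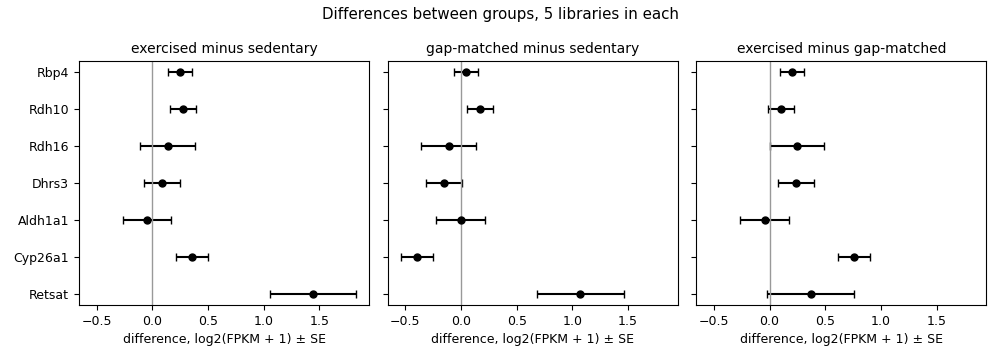
Differences in log2(FPKM + 1) of the 7 retinoid genes for exercised minus sedentary, gap-matched minus sedentary and exercised minus gap-matched livers, with limma standard errors as bars (for Cyp26a1 from the fit with no abundance filter). Retsat was 1.44 higher in exercised and 1.07 higher in gap-matched than in sedentary livers, while the differences of Rdh16, Dhrs3 and Aldh1a1 lay within 0.25 of 0.

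The promoters of Cyp26a1 and Retsat are shown because they had the largest differences between groups of the 7 genes. Each runs from 250 bases before the annotated start to 50 bases after it, from RefSeq on the GRCr8 build, at chr1:244883572-244883871 for Cyp26a1 and chr4:106211209-106211508 for Retsat, both on the plus strand. Capitals mark TATAAA in Cyp26a1 and AGGTCA, the core unit recognised by many nuclear receptors, in Retsat. Only exact matches to the motifs searched are marked. Direct repeats for retinoic acid receptors were not searched, so unmarked bases of either promoter can still hold one.
Cyp26a1: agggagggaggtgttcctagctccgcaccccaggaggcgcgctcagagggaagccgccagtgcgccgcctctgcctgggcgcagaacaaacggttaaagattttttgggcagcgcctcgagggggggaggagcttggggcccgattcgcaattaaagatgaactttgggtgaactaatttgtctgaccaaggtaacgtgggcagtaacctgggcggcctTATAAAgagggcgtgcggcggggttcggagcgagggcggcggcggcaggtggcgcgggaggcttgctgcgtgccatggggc
Retsat: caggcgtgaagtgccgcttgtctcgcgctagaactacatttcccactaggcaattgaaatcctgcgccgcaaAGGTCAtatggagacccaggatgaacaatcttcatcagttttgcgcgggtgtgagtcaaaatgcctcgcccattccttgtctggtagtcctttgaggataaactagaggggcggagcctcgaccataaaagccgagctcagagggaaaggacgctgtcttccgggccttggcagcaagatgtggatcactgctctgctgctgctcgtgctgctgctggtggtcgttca

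The 3 motifs searched on both strands were TATAAA (the TATA box), AGGTCA (above) and CACGTG (the E-box), and their matches did not overlap. With the first transcribed base as 1, Cyp26a1 held TATAAA from base -31 to -26, and Retsat held AGGTCA from -178 to -173. TATAAA occurred in 14.2%, AGGTCA in 16.2% and CACGTG in 6.42% of 33469 rat promoters of this length. Of the 7 genes, 5 were in the promoter table, and Rbp4 was the only other one with a match, to TATAAA from -50 to -45. Rdh10 and Rdh16 were not matched to the promoter table.

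Retsat had the largest log2(FPKM + 1) differences from sedentary livers of the 7 genes, whereas Cyp26a1 had the larger one between exercised and gap-matched livers. The rank in gap-matched minus sedentary depended on the added 1. With 0.1 added instead, that difference was -1.22 for Cyp26a1 (no filter) and 1.08 for Retsat. Retsat measured 177, 60.2, 155, 176 and 182 FPKM in exercised livers, 142, 50.7, 267, 127 and 59.5 FPKM in gap-matched livers, and 43.4, 59.0, 64.9, 42.0 and 48.4 FPKM in sedentary livers. Of the exercised libraries 4 of 5, and of the gap-matched libraries 3 of 5, lay above every sedentary library. The rest, exercised library 2 and gap-matched libraries 2 and 5, lay within the sedentary range, so the groups overlapped.

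The Retsat mean was 150.02 ± 51.3 FPKM in exercised, 129 ± 86.9 FPKM in gap-matched and 51.6 ± 10.02 FPKM in sedentary livers (SD, n = 5 each). The exercised mean was 2.91 times and the gap-matched mean 2.51 times the sedentary mean, or 1.44 ± 0.39 and 1.07 ± 0.39 (SE) higher on the log2 scale. Exercised livers differed from gap-matched livers by 0.37 ± 0.39, less than its standard error. The spread inside groups differed too: the highest library was 3.02 times the lowest in exercised, 5.27 times in gap-matched and 1.54 times in sedentary livers. The within-group SD of Retsat was 0.70 on the log2 scale, and 97.9% of tested genes had a smaller one. For Rdh16 it was 0.43, for Aldh1a1 0.39, for Dhrs3 0.27, for Rdh10 0.19 and for Rbp4 0.14, beside a median of 0.20 over all tested genes.

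The summed level of 10 markers of pericentral hepatocytes, the cells around the central vein, was higher in every exercised and gap-matched library than in any sedentary library. It ran from 4487 to 6255 FPKM in exercised, 4415 to 6447 FPKM in gap-matched and 2393 to 4104 FPKM in sedentary livers. Of the 8 tested, 1 passed in exercised against sedentary livers (Cyp2e1, higher), where 5.78% of all genes passed, and 1 in gap-matched against sedentary livers (Rnase4, higher), where 3.05% passed. These 2 genes made up most of the sum, with means of 1157 FPKM for Cyp2e1 and 1776 FPKM for Rnase4 in sedentary livers. Of 8 tested periportal markers, 1 passed in exercised against sedentary livers (Pck1, higher), and their sums overlapped, at 3694 to 6974 FPKM in exercised, 3310 to 3835 FPKM in gap-matched and 3211 to 5159 FPKM in sedentary livers. The part of these cells in the Retsat differences was not tested.

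The order of levels placed Retsat differently in the groups. In exercised livers the order was Rbp4, Retsat, Rdh16, Dhrs3, Aldh1a1, Rdh10 and Cyp26a1, from high to low. Gap-matched livers kept it except that Aldh1a1 stood above Dhrs3. In sedentary livers Retsat came after Rdh16, Dhrs3 and Aldh1a1. Retsat exceeded Rdh16 in 4 of 5 exercised, 3 of 5 gap-matched and 1 of 5 sedentary libraries. The ranges of neighbours among Retsat, Rdh16, Dhrs3 and Aldh1a1 overlapped in every group, whereas Rbp4 lay above and Cyp26a1 below all others in each.

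The transcripts whose levels ran most like Retsat over the 15 libraries were Rdh7 (Pearson r = 0.86, Spearman rho = 0.91), Spats2l (0.84 and 0.96), Pogk (0.84 and 0.83), Taf4b (0.83 and 0.85) and Zfp740 (0.82 and 0.85). They are the highest of 11216, so the values are a description. Rdh7, a hepatic dehydrogenase that acts on retinol in rat, measured 612, 543, 594, 585 and 623 FPKM in exercised, 619, 441, 671, 612 and 515 FPKM in gap-matched and 423, 566, 589, 477 and 476 FPKM in sedentary livers. Its lowest exercised library was library 2 and its highest gap-matched library was library 3, the same libraries as for Retsat. Its group differences were small, 0.23 for exercised and 0.17 for gap-matched against sedentary livers, with limma adjusted p-values of 0.279 and 0.484. As for Rdh16, how fragments shared within this gene family were assigned is not stated, so the level of Rdh7 is uncertain.

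After group means were subtracted, Sgk2, a serum- and glucocorticoid-inducible kinase gene, was the most alike to Retsat (r = 0.87, rho = 0.91, and r = 0.90 without the 2 most distant libraries). Sgk2 measured 6.64, 5.36, 5.38, 6.22 and 6.52 FPKM in exercised, 15.6, 9.76, 19.7, 14.3 and 11.4 FPKM in gap-matched and 27.4, 33.3, 37.2, 25.3 and 28.9 FPKM in sedentary livers. Between groups it ran opposite to Retsat, with an exercised minus sedentary difference of -2.15 (limma adjusted p = 2.06e-06). Inside groups it ranked the libraries nearly as Retsat did: of the 10 library pairs in each group, 9 had the same order in exercised, 10 in gap-matched and 10 in sedentary livers. Rdh7 had the same order as Retsat in 9, 10 and 8 pairs of these groups. Both genes were picked for their likeness to Retsat among 11216 tested genes, so a like order follows from that choice and is a description.

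**Figure D3:**
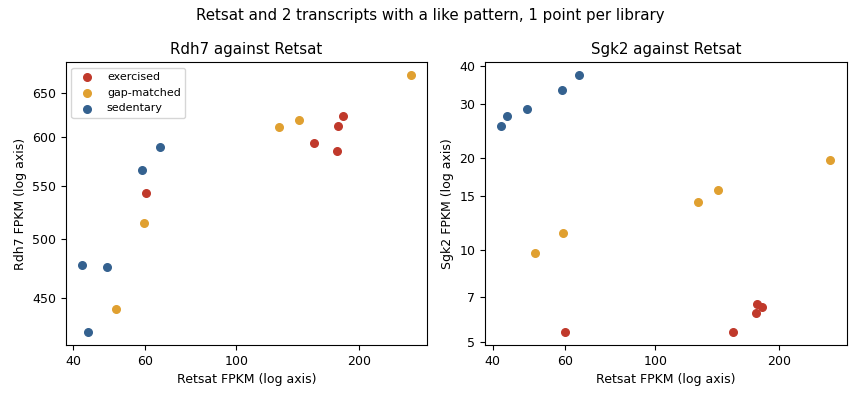
FPKM of Rdh7 (left) and Sgk2 (right) against FPKM of Retsat on log axes, 1 point per library coloured by group. Inside each group, libraries high in Retsat were mostly high in both genes (r of deviations from group means 0.82 for Rdh7 and 0.87 for Sgk2), while Sgk2 lay lowest in exercised and highest in sedentary livers.

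For the other genes, partners are given among entries with a name, and where several entries share a name, among the most abundant of these. Dhrs3 ran with Ganab (r = 0.98) and with the entry named Tas1r2 (r = 0.97). Tas1r2 is the name of a taste receptor gene, and whether it fits this entry was not tested. For Rbp4 the most alike of them was Zfand5 (0.88) and for Rdh16 Zc3h10 (0.82), each first among all tested genes. For Rdh10 it was DCAF11 (0.84) and for Aldh1a1 Gstt3 (0.75), each at rank 2 of all tested genes, behind an entry that this rule leaves out. Among the 7 retinoid genes themselves, deviations from group means gave r between -0.62 and 0.48 over 21 pairs. No pair passed after Benjamini-Hochberg adjustment of permutation p-values, for Pearson's r or for Spearman's rho. Rdh10 with Rdh16 gave r = -0.62 (permutation p = 0.0203, adjusted p = 0.427, r = -0.49 without the 2 most distant libraries) and rho = -0.69 (permutation p = 0.00776, adjusted p = 0.137). Rbp4 with Rdh16 gave r = 0.48 (permutation p = 0.0642, adjusted p = 0.674, r = 0.57 without the 2 most distant libraries) and rho = 0.66 (permutation p = 0.013, adjusted p = 0.137). Cyp26a1 and Retsat gave r = -0.40 with an adjusted p of 0.68.

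Of 87 further genes listed for retinoid carriage, storage, interconversion, clearance and signalling, 75 were in the table and 54 were tested. In exercised against sedentary livers 3 passed as higher and 4 as lower, 13% of those tested, beside 5.78% of all tested genes. In gap-matched against sedentary livers 0 passed as higher and 3 as lower, 5.56% beside 3.05% of all tested genes. Between exercised and gap-matched livers 1 passed as higher and 0 as lower, 1.85% beside 0.9% of all tested genes. The lists were chosen with earlier results of these data known, so these shares are a description and cannot show an excess. The counts of single lists below are to be read beside the same shares of all tested genes. The median difference of the 54 genes was 0.05, -0.01 and 0.09 in these comparisons, and that of all tested genes 0.01, -0.03 and 0.04.

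Receptors held the most calls, with all 12 listed receptors and cofactors tested. In exercised against sedentary livers 1 passed as higher and 2 as lower, where 5.78% of all tested genes passed. Rarb, the receptor that retinoic acid itself induces, fell in both groups relative to sedentary livers. It measured 15.5, 19.1, 15.03, 12.4 and 13.4 FPKM in exercised, 13.0, 11.9, 13.7, 20.4 and 12.4 FPKM in gap-matched and 29.9, 31.8, 28.8, 21.9 and 27.0 FPKM in sedentary livers. Every exercised and gap-matched library lay below every sedentary library. Among genes with any value above 0, 3.06% separated the gap-matched group fully below the sedentary group. The like share for the exercised group is not given here. The Rarb differences were -0.85 ± 0.14 (limma adjusted p = 0.00372) and -0.93 ± 0.14 (adjusted p = 0.00526). Exercised and gap-matched livers differed by 0.08 in Rarb (limma adjusted p = 0.802).

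Rxrb, a shared partner of nuclear receptors, averaged 13.2 ± 1.62 FPKM in exercised, 9.35 ± 0.904 FPKM in gap-matched and 9.37 ± 0.804 FPKM in sedentary livers. It rose by 0.45 ± 0.09 in exercised against sedentary livers (limma adjusted p = 0.0116) and by 0.45 ± 0.09 against gap-matched livers (adjusted p = 0.036). The call against gap-matched livers was lost in 7 of 10 fits without a library, with adjusted p-values of 0.0722, 0.091 and 0.0902 without exercised libraries 1, 2 and 4, and 0.0936, 0.053, 0.0916 and 0.0847 without gap-matched libraries 2, 3, 4 and 5. Rxrg averaged 13.6 ± 1.51, 14.9 ± 1.95 and 18.5 ± 2.002 FPKM in exercised, gap-matched and sedentary livers and fell by 0.42 ± 0.10 in exercised against sedentary livers (adjusted p = 0.0281). It no longer passed without exercised library 1, 2 or 3 (0.0718, 0.0509 and 0.0646) or sedentary library 2, 3 or 5 (0.057, 0.0533 and 0.0762).

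Among 13 tested enzymes of retinol and retinal interconversion, 1 rose and 1 fell in exercised against sedentary livers. There 5.78% of all tested genes passed. Rdh11, a microsomal reductase of retinal, averaged 30.7 ± 4.63 FPKM in exercised, 37.8 ± 3.53 FPKM in gap-matched and 46.1 ± 5.09 FPKM in sedentary livers. Its exercised minus sedentary difference was -0.58 ± 0.11 (limma adjusted p = 0.00608), and the gap-matched difference of -0.28 did not pass (adjusted p = 0.179). Adh7, an alcohol dehydrogenase that can oxidise retinol, averaged 7.43 ± 1.95, 4.92 ± 1.63 and 3.90 ± 0.494 FPKM in exercised, gap-matched and sedentary livers. Its exercised difference of 0.76 ± 0.18 (adjusted p = 0.0212) no longer passed without exercised library 1 (0.0607) or 2 (0.0523).

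Of 7 tested carriers and uptake genes, Fabp5, a binding protein for fatty acids and retinoic acid, averaged 308 ± 52.3 FPKM in exercised, 254.5 ± 72.3 FPKM in gap-matched and 507 ± 156 FPKM in sedentary livers. It fell in gap-matched livers, by 0.99 ± 0.21 (limma adjusted p = 0.0191, or 0.0505 without sedentary library 2), and the exercised difference of -0.68 did not pass (adjusted p = 0.0671). Of 9 tested genes of retinyl ester storage and release, Pnpla3, a lipase of lipid droplets that hydrolyses retinyl esters in human stellate cells, fell in exercised and in gap-matched against sedentary livers (-2.40 and -1.54, adjusted p = 0.000611 and 0.0144). Of 3 tested clearance genes, Cyp2b1 rose in exercised livers (1.54, adjusted p = 0.013), at 7.86 ± 4.41 FPKM against 1.73 ± 0.464 FPKM in sedentary livers. It is uncertain because it has near-identical copies. None of the 4 tested genes that oxidise retinal passed with limma in any comparison. Closest was Aox1, an aldehyde oxidase, at 0.33 in exercised against sedentary livers (limma adjusted p = 0.097), where 5.78% of all tested genes passed. There 1 gene had an unadjusted p under 0.05, a threshold whose share over all tested genes was not computed.

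**Figure D4:**
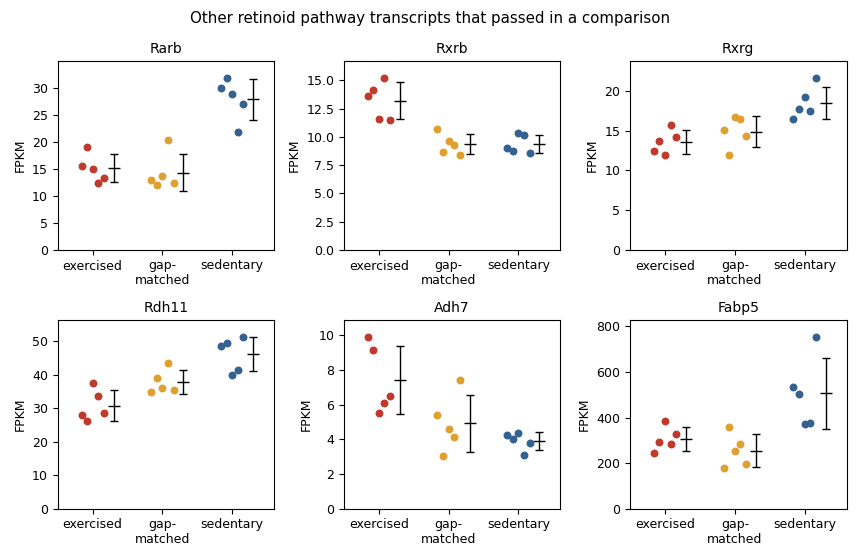
FPKM of 6 other retinoid pathway genes that passed in at least 1 comparison, per library (points) with group mean and SD (bars, n = 5 each). Rarb lay at or below 20.4 FPKM in all exercised and gap-matched libraries and at or above 21.9 FPKM in all sedentary libraries.

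Among 14 listed genes that retinoic acid induces, 8 were tested. Rarb was the only one that passed. It was lower in exercised and in gap-matched against sedentary livers, where 5.78% and 3.05% of all tested genes passed. Dhrs3, also known to be induced by retinoic acid, differed by 0.09 and -0.15 in these comparisons (limma adjusted p = 0.813 and 0.662). Cyp26a1, which retinoic acid also induces, averaged 1.03 ± 0.466 FPKM in exercised, 0.176 ± 0.0672 FPKM in gap-matched and 0.561 ± 0.240 FPKM in sedentary livers (SD, n = 5 each). Stellate cells are the storage site of retinyl esters. The 3 comparisons follow in the order exercised minus sedentary, gap-matched minus sedentary and exercised minus gap-matched. Of 11 tested stellate markers 0 passed with limma in any of them, where 5.78%, 3.05% and 0.9% of all tested genes passed. At an unadjusted p under 0.05 there were 2, 1 and 2, a threshold whose share over all tested genes was not computed. The summed level of the stellate markers ran from 180 to 285 FPKM in exercised, 190 to 245 FPKM in gap-matched and 187 to 245 FPKM in sedentary livers.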

How the data were processed

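Liver RNA for 15 libraries was extracted with RNeasy and sequenced on Illumina instruments, per the labels' protocols. Each library had an FPKM value for each Ensembl gene in the table the authors deposited. The submitters' processing notes name Cufflinks, Trimmomatic and the Rnor_5.0 rat genome, but no tool version. An aligner and filters are not given in the sources used here. FPKM holds no counts, so absolute depth is unknown, no count test was run and low values such as those of Cyp26a1 have no counting interval.

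Of 26407 entries, 2 repeated an identifier and were dropped, which left 26405 genes. Of these, 2 held the placeholder 999999999 and were kept out of the tests. Where a symbol was repeated, the entry of highest mean was used; no repeat occurred among the 7 genes. Groups and columns were assigned from the labels.

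Differences were fitted with limma 3.58.1 (R 4.3.3), trend on, on log2(FPKM + 1) for genes of mean at least 1 FPKM, with all 3 groups in 1 fit and Benjamini-Hochberg adjustment over 11216 genes at 0.05. A log2(FPKM + 1) difference understates changes of low genes. The fit was tested on simulated data. Pairs of retinoid genes were tested with 100000 permutations inside groups. Alternatives were other pseudocounts and filters, 3 other scalings, fits of 2 groups, a replicate term and fits without each library; those for Cyp26a1 without a filter were added after seeing the data. The genes and lists were chosen with earlier results of these data known. Named genes were all 7, listed genes that passed or had the smallest p in their list, and the named entries most like Retsat and the 5 others that passed the filter, by Pearson r. No column of another sample was present. Replicate numbers did not pair the libraries.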

Additional observations from a re-analysis of the deposited data

Results flagged for a closer look

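In 45 combinations of gene and group, a library at the edge of its group was tested with Dixon's ratio against the critical value of 0.71 for 5 libraries, which chance passes in about 1 of 20. It was passed in 4. Exercised library 2 was lowest of its group for Retsat, at 60.2 FPKM (ratio 0.776), and for Rdh10, at 23.4 FPKM (ratio 0.752). Gap-matched library 4 was highest of its group for Rarb, at 20.4 FPKM (ratio 0.79). Gap-matched library 5 was highest of its group for Cyp2b1, at 4.92 FPKM (ratio 0.757).

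The differences of exercised and of gap-matched livers from sedentary livers were compared by limma's test of exercised against gap-matched livers. In it 2 genes of the retinoid pathway passed. Cyp26a1 differed by 0.76 with no abundance filter (adjusted p = 0.0438), where 0.24% of genes passed as higher. Rxrb differed by 0.45 with the filter (adjusted p = 0.036), where 0.9% of genes passed. With no filter Rxrb did not pass (adjusted p = 0.0536). Of 10 fits that each left out a library, Cyp26a1 passed in 1 (no filter) and Rxrb in 3 (with the filter).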

How the results depend on the processing

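The count of the 5 tested genes that passed was 0 in each comparison. It became 1 (Rbp4) in exercised minus sedentary with quantile normalization. Cyp26a1, which is not among these 5, passed with limma in exercised minus gap-matched livers in fits with no filter. These were the fit with no other change, with a pseudocount of 0.1 (1.95, adjusted p = 0.0262) and with median-of-ratios scaling. Small differences turned sign under other scalings: Rbp4 in gap-matched minus sedentary was -0.0228 at equal sums, and Aldh1a1 was 0.0431 with median-of-ratios and 0.027 with quantile scaling there, and 0.002 in exercised minus gap-matched at equal sums. Without a library each, Rdh16 ranged from -0.094 to 0.25 in exercised minus sedentary and from -0.34 to 0.0278 in gap-matched minus sedentary, Dhrs3 from -0.0173 to 0.18 in exercised minus sedentary, and Aldh1a1 from -0.16 to 0.0747, -0.17 to 0.18 and -0.23 to 0.12 in exercised minus sedentary, gap-matched minus sedentary and exercised minus gap-matched. Retsat kept its direction, with 1.35 to 1.74, 0.75 to 1.34 and 0.10 to 0.69 without a library in the same comparisons. Rarb passed against sedentary livers under every alternative run. The cause of these shifts was not tested.

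Genes passing in exercised minus sedentary numbered 648, and 342 to 642 without a library (360 and 418 without exercised 1 and 4, 418, 342 and 367 without sedentary 1, 2 and 5). In gap-matched minus sedentary there were 342, and 147 to 357 without a library (202, 192, 220 and 213 without gap-matched 1, 2, 4 and 5, 147, 186 and 178 without sedentary 2, 3 and 5). In exercised minus gap-matched there were 101, but 53 with no filter, 48 with no filter and a pseudocount of 0.1, 34 at equal sums, 16 in a fit of these groups alone, and 18 to 131 without a library (34, 20 and 22 without exercised 1, 2 and 4, 18, 26 and 23 without gap-matched 2, 4 and 5). The share of calls that were lower was 73.1% in gap-matched minus sedentary, against 58.9% with median-of-ratios, 59.7% with quantile scaling and 83.9% at equal sums; in exercised minus gap-matched it was 23.8%, against 40.7% and 36.6% with the first and second of these; and in exercised minus sedentary 56.5%, against 66.1% at equal sums. The Rxrb call between exercised and gap-matched livers was lost with no filter (0.0536), at equal sums (0.0625) and in a fit of these groups alone (0.0933).

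Same-numbered libraries of different groups shared only a number: correlations of their deviations ran from -0.267 to 0.187 over 15 pairs, and 1 of 15 libraries correlated best with its own number. In fits with a replicate block, 449, 201 and 20 genes passed in the 3 comparisons, Rxrg in exercised minus sedentary had an adjusted p of 0.051, and Rxrb in exercised minus gap-matched 0.0755.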

Other observations

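Bcmo1, the enzyme that cleaves beta-carotene to retinal, measured 2.33, 10.95, 2.80, 17.0 and 2.08 FPKM in exercised, 12.7, 2.43, 10.04, 1.28 and 19.6 FPKM in gap-matched and 2.22, 19.8, 15.8, 22.2 and 9.68 FPKM in sedentary livers. No library lay between 2.80 and 9.68 FPKM. The exercised minus sedentary difference was -1.01 ± 0.68 (limma adjusted p = 0.429).

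Kupffer cell markers gave 0 of 8 passes with limma in exercised against sedentary livers, where 5.78% of all tested genes passed. At an unadjusted p under 0.05 there were 5, a threshold whose share over all tested genes was not computed. The summed level of these markers was 423 to 605 FPKM in exercised, 393 to 582 FPKM in gap-matched and 277 to 490 FPKM in sedentary livers.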
